A study of Mus musculus with 9 samples.

Results

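The dystrophin glycoprotein complex is described here at the level of its transcripts, through 8 genes chosen by symbol from the 23231 rows of a deposited expression table. They are Dmd, Utrn, Dag1, Sgca, Sgcb, Sgcd, Dtna and Sspn, and all 8 symbols were found. Their identifiers in the table, in the same order, are ENSMUSG00000045103, ENSMUSG00000019820, ENSMUSG00000039952, ENSMUSG00000001508, ENSMUSG00000029156, ENSMUSG00000020354, ENSMUSG00000024302 and ENSMUSG00000030255. The rule also speaks of syntrophin, but no syntrophin gene is among the listed symbols, so syntrophins are counted only within a list of partner genes. RNA came from the tibialis anterior, a fast muscle of the lower leg, of C57BL/6 mice aged 6 months after electroporation of small interfering RNA (siRNA). The controls received a non-targeting siRNA, and the other groups received construct 5 or construct 7, which are different siRNAs against Ubr4, an E3 ubiquitin ligase. Each group had 3 libraries, 9 in all, and every group, the controls included, had been electroporated. The labels do not say how many muscle fibres took up the siRNA or whether the samples of a group came from separate animals, so p-values measure the spread between these samples, which may be technical.

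Dystrophin is a long rod-shaped protein that ties actin under the muscle membrane to beta-dystroglycan in the membrane. Alpha-dystroglycan outside the cell holds laminin in the basement membrane, and the sarcoglycans and sarcospan form a subcomplex that steadies this link. Dystrobrevin and the syntrophins attach on the inner side and carry signalling proteins such as neuronal nitric oxide synthase. Loss of dystrophin causes Duchenne muscular dystrophy, loss of single sarcoglycans causes limb-girdle muscular dystrophies, and utrophin, the close relative of dystrophin, is concentrated at the neuromuscular junction in adult muscle.

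Levels are FPKM, read counts divided by gene length and by the depth of the library. The deposited values of all 8 genes were found to be whole numbers of reads divided by gene length and depth, to within 0.0019 reads, and total depth was 29312122 to 45563543 reads per library. The rarest of them, Sgcd, held 491 to 1468 reads per library and the others at least 851, so counting error was at most 4.51% of a value. Ubr4 stood at 7.82, 10.3 and 9.09 FPKM in the controls, 3.61, 3.80 and 2.73 with construct 5, and 2.25, 2.58 and 3.07 with construct 7, below every control in all 6 siRNA libraries. The markers of muscle fibres were abundant, at summed levels of 51917 to 61290 FPKM for 10 genes in every library, as the labelled tissue implies. Summed fibroblast markers (8 genes) were 365 to 427 FPKM in the controls, 466 to 721 with construct 5 and 287 to 317 with construct 7. The 10 macrophage markers summed to 123 to 184, 203 to 368 and 101 to 153 FPKM in the same order. All 10 macrophage and all 8 fibroblast markers had log2 changes above 0 with construct 5, and 8 of the 10 and 8 of the 8 were below 0 with construct 7. None of these markers was at 0 in all libraries. Log2 changes below are limma estimates on the log2(FPKM + 1) scale, and an adjusted p is limma's p after Benjamini-Hochberg adjustment over all 10794 genes with a mean of at least 1 FPKM. Across those genes the median log2 change was 0.13 with construct 5 and 0.02 with construct 7, so changes are to be read against these values.

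Sarcospan (Sspn) and alpha-sarcoglycan (Sgca) were the members with an adjusted p under 0.05 with construct 5, in opposite directions. Over 20 alternative settings this was kept in 9 for Sspn and in 12 for Sgca. Sequence ahead of the start sites of these genes is shown because their transcripts moved apart with construct 5. The 250 bases come from RefSeq (GRCm38.p6, a later build than the mm9 of the deposited table), and capitals mark E-boxes, CANNTG on either strand, the motif bound by the myogenic factors MyoD and myogenin. The Sgca window lies on the minus strand at chr11:94976328-94976577 and overlaps no exon or transcript of GENCODE M21. The Sspn window lies on the plus strand at chr6:145933872-145934121, at start site 2 of Sspn, and is within an intron of a longer Sspn transcript. The table also holds a window at start site 1 of Sspn (chr6:145931623-145931872, plus strand), which is not printed.
Sgca: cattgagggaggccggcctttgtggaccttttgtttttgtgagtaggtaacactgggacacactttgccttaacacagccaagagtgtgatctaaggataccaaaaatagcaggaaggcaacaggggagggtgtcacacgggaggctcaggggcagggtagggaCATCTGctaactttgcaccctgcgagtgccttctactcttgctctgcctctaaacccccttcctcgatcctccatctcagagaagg
Sspn: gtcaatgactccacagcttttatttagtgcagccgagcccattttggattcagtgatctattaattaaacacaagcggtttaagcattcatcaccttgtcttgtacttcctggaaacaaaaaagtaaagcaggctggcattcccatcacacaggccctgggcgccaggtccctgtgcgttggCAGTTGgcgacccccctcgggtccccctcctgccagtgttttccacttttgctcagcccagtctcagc
The Sgca window held 1 E-box, catctg, 81 to 86 bases before the start, and the printed Sspn window held 1, cagttg, 63 to 68 bases before it. The window at start site 1 of Sspn held 0 E-boxes. An E-box was present in 66.2% of all 32851 windows of this length in the table. A GC box (GGGCGG, 32.7% of windows), a CCAAT box (CCAAT, 33.8%) and a TATA box (TATAAA, 12.4%), each sought on both strands, were in neither printed window. The window at start site 1 of Sspn held 1 CCAAT box, 216 to 220 bases before the start, and no GC or TATA box. GC content was 52.8% for Sgca and 51.2% for the printed Sspn window (48.0% at start site 1), beside a median of 52.4% for all windows. Promoter windows were taken for 7 of the 8 genes and not for Dtna. The entries of a chromosome were left out before the search, so this does not show that the reference lacks a window for Dtna.

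In the control muscles the levels per length spanned a wide range. Alpha-sarcoglycan was the most abundant at 100.5, 98.96 and 98.0 FPKM, above 96% of tested genes. Dystroglycan (Dag1, 34.3 to 44.6 FPKM) and beta-sarcoglycan (Sgcb, 30.4 to 35.5) followed and overlapped each other. Sarcospan (19.8 to 21.0), alpha-dystrobrevin (Dtna, 10.5 to 13.4) and dystrophin (Dmd, 3.87 to 5.27) came next, each below the previous gene in every control. Delta-sarcoglycan (Sgcd, 2.03 to 3.37) and utrophin (Utrn, 2.19 to 2.72) were lowest and overlapped. The gene length behind each FPKM was recovered from the values (23808 bases for Dmd, 13231 for Utrn, 1735 for Sgca) and was not compared with the annotated exons. Levels are given per gene, so that of a gene with several promoters, such as Dmd, does not separate its isoforms.

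**Figure D1:**
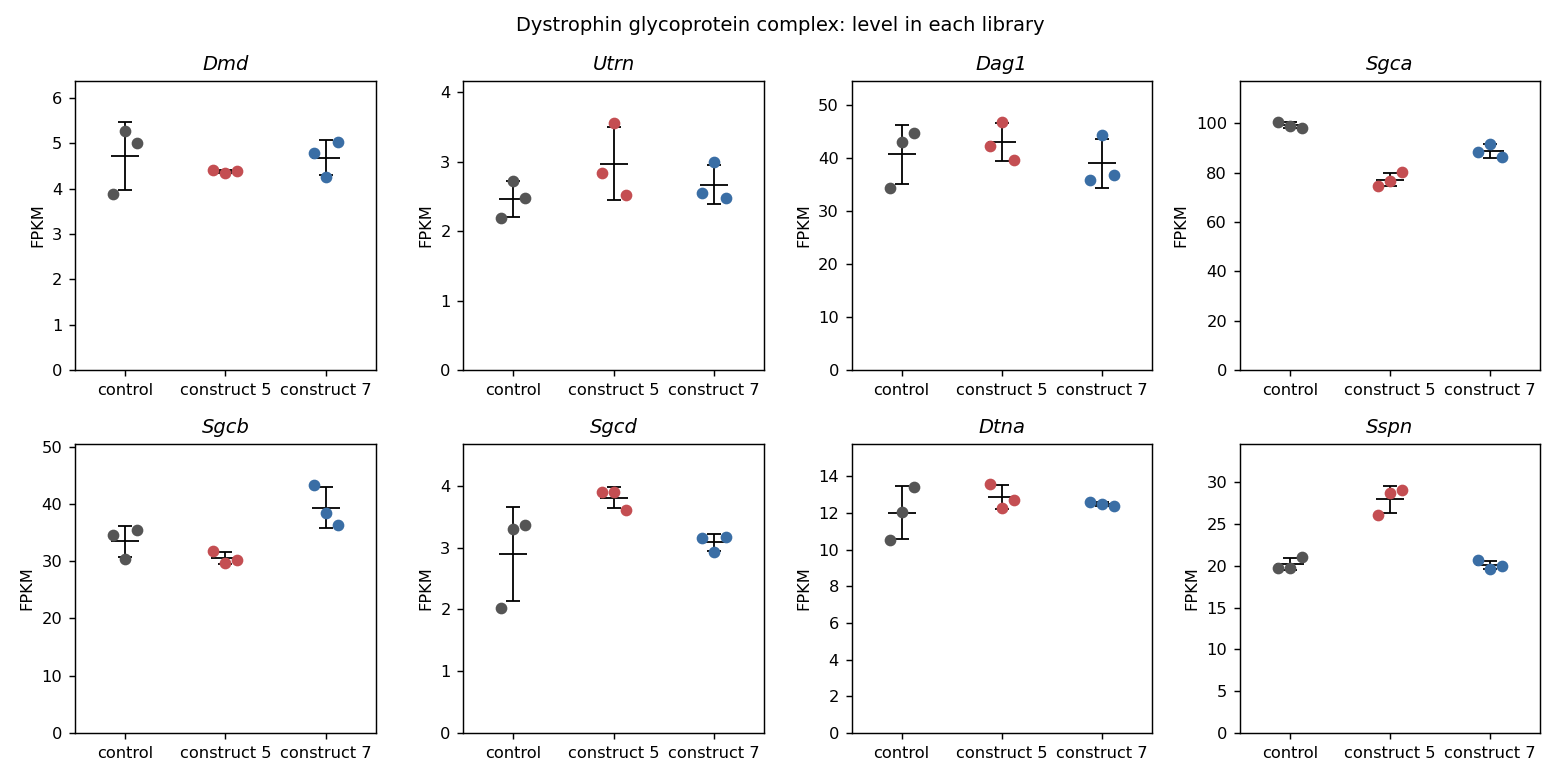
FPKM of the 8 genes in each of the 9 libraries (points, in order of replicate number), with the mean and SD of each group (bars, n = 3). Sspn with construct 5 (26.2 to 29.1 FPKM) lies above, and Sgca with construct 5 (74.7 to 80.1 FPKM) below, every library of the other groups.

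Sarcospan is a small tetraspanin-like membrane protein that binds the sarcoglycans. It stood at 19.8, 19.8 and 21.0 FPKM in the controls, 26.2, 28.8 and 29.1 with construct 5, and 20.7, 19.7 and 20.04 with construct 7. The construct 5 libraries were all higher than the other 6, while controls and construct 7 overlapped. The mean of 28.0 ± 1.61 FPKM was 139% of the control mean of 20.2 ± 0.72 (SD, n = 3). The log2 change was 0.45 (SE 0.0658, limma adjusted p = 0.0344). With construct 7 the mean was 20.1 ± 0.507 FPKM and the log2 change 0.00 (95% interval -0.15 to 0.14, limma adjusted p = 0.994). The difference between the constructs was -0.45 (SE 0.0658, limma adjusted p = 0.0224). Beside a median of 0.13 for all genes, median-ratio scaling left a log2 change of 0.31 with construct 5 and ended the call (adjusted p = 0.0761), and the call between constructs ended too (-0.34, adjusted p = 0.0792). The call with construct 5 ended too with quantile normalization (0.0504), no filter on low values (0.0523), the replicate block (0.0518) and voom under median-ratio scaling (0.078). The call between constructs ended with quantile normalization (0.0525), no filter (0.0522), only the libraries of the contrast (0.0854) and voom under median-ratio scaling (0.0758). Leaving out single libraries ended the call with construct 5 without control replicate 1, 2 or 3 (adjusted p = 0.12, 0.101 and 0.0941), construct 5 replicate 1 or 2 (0.112 and 0.066) or construct 7 replicate 3 (0.061), and the call between constructs without construct 5 replicate 2 (0.0614) or construct 7 replicate 1 or 3 (0.0795 and 0.0969). Over 20 alternatives the call with construct 5 was kept in 9 and that between constructs in 12. The log2 change with construct 5 was 0.31 to 0.50 and the adjusted p 0.0273 to 0.12. Fibroblast and macrophage markers were higher in the same libraries, and their part in the level of Sspn was not tested.

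Alpha-sarcoglycan is a sarcoglycan largely restricted to striated muscle. It stood at 100.5, 98.96 and 98.0 FPKM in the controls, 74.7, 76.5 and 80.1 with construct 5, and 88.2, 91.7 and 86.2 with construct 7. The 3 groups did not overlap, with controls highest and construct 5 lowest. Construct 5 took the mean from 99.1 ± 1.25 down to 77.1 ± 2.72 FPKM (SD, n = 3). That is 77.8% of control and a log2 change of -0.36 (SE 0.0611, limma adjusted p = 0.0406). Construct 7 libraries averaged 88.7 ± 2.78 FPKM, which is 89.4% of control (-0.16, 95% interval -0.30 to -0.02, limma adjusted p = 0.446). All 6 siRNA libraries were below all 3 controls, a pattern on the low side that 1.45% of tested genes had. It also held for 2 of the 10 muscle fibre markers and for caveolin 3, described below. The mean of both constructs did not pass for Sgca (-0.26, SE 0.0529, limma adjusted p = 0.0821). The constructs differed by 0.20 (95% interval 0.06 to 0.34, limma adjusted p = 0.114). Median-ratio scaling kept the call with construct 5 at a larger size (-0.51, adjusted p = 0.0305). The call ended with no filter on low values (0.0546), with the replicate block (0.054), and without control replicate 1, 2 or 3 (0.12, 0.101 and 0.0941), construct 5 replicate 1 or 2 (0.138 and 0.0704) or construct 7 replicate 3 (0.061). Its direction was the same in all 20 alternatives, from -0.51 to -0.34. A lower level in bulk muscle can come from fewer cells of a type or from less RNA per cell, and these cannot be told apart. Of the 10 muscle fibre markers, 6 were below 0 with construct 5, with a median of -0.05. Limma and voom called 0 of them (1 at an unadjusted p under 0.05). Against the all-gene median of 0.13, 3 of the 10 were higher, and scaling libraries by median ratio took the marker median to -0.19. In 3 markers every construct 5 library was below every control, and in 0 above, beside 5.19% and 33% of all tested genes. The part of fibre content in the level of Sgca was not tested.

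With construct 5, then, 2 of the 8 genes were called, 1 higher and 1 lower, beside 5.27% of all tested genes called (4.67% higher and 0.602% lower). The median log2 change of the 8 was 0.09 against 0.13 for all genes. In 2 genes (Sspn and Sgcd) every construct 5 library was higher than every control and in 1 (Sgca) every library was lower, beside 33% and 5.19% of all tested genes. Non-overlap in either direction held for 38.2% of all genes. At an unadjusted p under 0.05 the count was 3, beside 31.9%, and voom, a limma method for counts applied to the recovered reads, called 2. With construct 7 limma and voom called 0 of the 8, beside 0.0556% of all genes, and 2 (Sgca and Sgcb) had an unadjusted p under 0.05, beside 9.47%. The same 2 did not overlap the controls, Sgcb higher and Sgca lower, beside 10.5% and 6.26% of all genes, 16.8% together. The median of the 8 was 0.03, against 0.02 for all genes. For the mean of both constructs limma and voom again called 0, beside 0.00926%, with 2 at an unadjusted p under 0.05, beside 19.1%. In 0 genes were all 6 siRNA libraries higher than the controls and in 1 (Sgca) lower, beside 8.04% and 1.45%, 9.49% together. Between the constructs 1 gene (Sspn) was called, and it was lower with construct 7, beside 1.22% of all genes called and 1.07% called lower. At an unadjusted p under 0.05 there were 3, beside 23.1%. Groups did not overlap for 2 genes higher with construct 7 (Sgca and Sgcb) and 2 lower (Sgcd and Sspn), beside 3.02% and 22.4%, or 25.4% together. The comparisons with each construct share their control libraries.

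**Figure D2:**
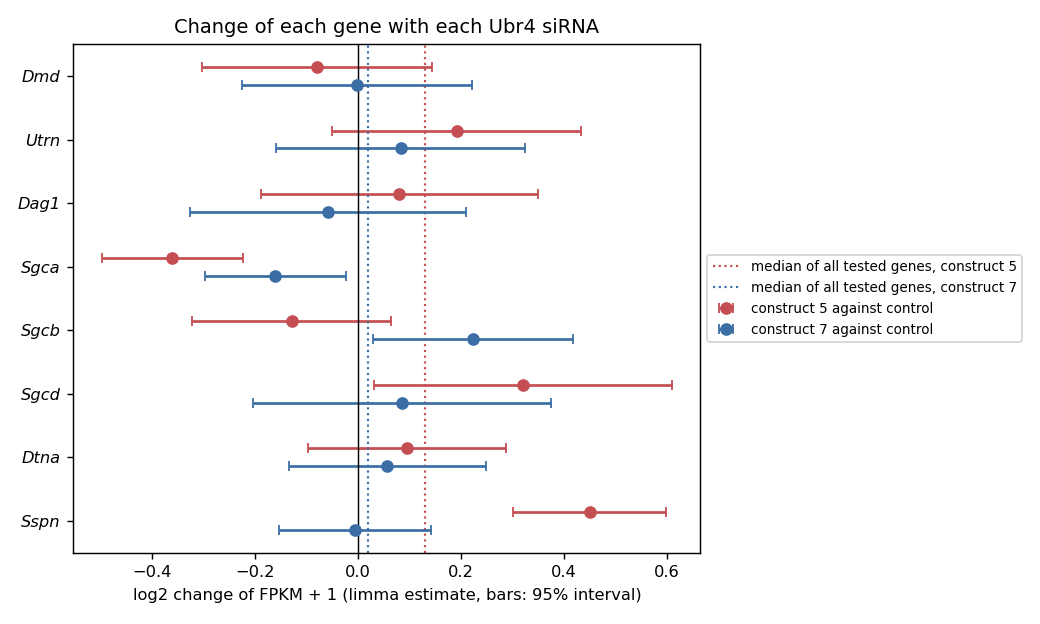
Log2 change of each gene with construct 5 (red) and construct 7 (blue) against the controls, with 95% intervals from limma. Dotted lines mark the median of all tested genes, 0.13 and 0.02. The construct 5 intervals of Sgca (-0.50 to -0.22) and Sspn (0.30 to 0.60) lie on opposite sides of 0.

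Beta-sarcoglycan is part of the sarcoglycan core that assembles first, together with delta-sarcoglycan. It stood at 34.6, 30.4 and 35.5 FPKM in the controls, 31.7, 29.7 and 30.2 with construct 5, and 43.3, 38.5 and 36.3 with construct 7. Every construct 7 library was above every other library, and construct 5 overlapped the controls. The log2 change was -0.13 (SE 0.0862, adjusted p = 0.317) with construct 5 and 0.22 (SE 0.0862, limma adjusted p = 0.45) with construct 7. The difference between constructs was 0.35 (95% interval 0.16 to 0.55, limma adjusted p = 0.071). It passed with median-ratio scaling (0.47, adjusted p = 0.0444) and with voom under that scaling (0.48, adjusted p = 0.0407). These were the only 2 of 20 alternatives that called it, with a limma adjusted p of up to 0.182 in the others.

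Delta-sarcoglycan, which smooth muscle also makes, stood at 2.03, 3.30 and 3.37 FPKM in the controls, 3.91, 3.90 and 3.61 with construct 5, and 3.15, 2.92 and 3.17 with construct 7. All construct 5 libraries exceeded all controls, but the log2 change of 0.32 (SE 0.128) had a limma adjusted p = 0.127. It was 0.15 without control replicate 1, 0.21 with median-ratio scaling and 0.16 with quantile normalization. Over 19 alternatives it ranged from 0.15 to 0.43, and 0 of them called it. The change with construct 7 was 0.09 (95% interval -0.20 to 0.37). Markers of smooth muscle and pericytes summed to 168 to 184 FPKM in the controls and 168 to 172 with construct 5.

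Dystrophin itself stood at 3.87, 5.27 and 5.01 FPKM in the controls, 4.41, 4.36 and 4.38 with construct 5, and 4.79, 4.25 and 5.02 with construct 7. The 3 groups overlapped. The log2 change was -0.08 with construct 5 (95% interval -0.30 to 0.14) and 0.00 with construct 7 (95% interval -0.22 to 0.22). Changes within these intervals remain possible with 3 libraries a group. Larger ones could also go uncalled, as the 0.32 of Sgcd with construct 5 did.

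Utrophin stood at 2.19, 2.72 and 2.48 FPKM in the controls, 2.83, 3.55 and 2.53 with construct 5, and 2.55, 2.99 and 2.47 with construct 7. Construct 5 replicate 2 was the highest library, and each siRNA group overlapped the controls. The log2 change was 0.19 with construct 5 (95% interval -0.05 to 0.43, limma adjusted p = 0.239) and 0.08 with construct 7 (95% interval -0.16 to 0.33, limma adjusted p = 0.868). The construct 5 value was 0.09 without construct 5 replicate 2, 0.08 with median-ratio scaling, 0.02 with quantile normalization and 0.11 with voom under median-ratio scaling. Its range over 19 alternatives was 0.02 to 0.27, and 0 of them called it. The ratio of Utrn to Dmd within a library was 0.525 ± 0.0369 in the controls, 0.678 ± 0.123 with construct 5 and 0.576 ± 0.112 with construct 7 (SD, n = 3), highest in construct 5 replicate 2 (0.816) and in construct 7 replicate 2 (0.704).

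Dystroglycan, whose single transcript gives both the alpha and the beta subunit, ranged from 34.3 to 44.6 FPKM in the controls, from 39.6 to 46.7 with construct 5 and from 35.9 to 44.3 with construct 7. The groups overlapped, with log2 changes of 0.08 (95% interval -0.19 to 0.35) and -0.06 (95% interval -0.33 to 0.21). Alpha-dystrobrevin ranged from 10.5 to 13.4, from 12.3 to 13.6 and from 12.4 to 12.6 FPKM in the same order. Its log2 changes were 0.10 (95% interval -0.10 to 0.29) and 0.06 (95% interval -0.13 to 0.25). With median-ratio scaling the construct 5 values of Dag1 and Dtna turned to -0.06 and -0.04.

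Ratios within a library do not change when all its values are divided by a constant factor, as in median-ratio scaling. Quantile normalization can change them. Sspn to Sgca was 0.197, 0.20 and 0.215 in the controls, 0.35, 0.376 and 0.364 with construct 5, and 0.235, 0.215 and 0.233 with construct 7. Construct 5 stood apart from both other groups, and construct 7 lay at or just above the top of the controls. Sgcb to Sgca was 0.344, 0.307 and 0.363 in the controls, 0.425, 0.388 and 0.377 with construct 5, and 0.49, 0.42 and 0.421 with construct 7, so all 6 siRNA libraries had a higher ratio than any control. Sspn to Sgcb was 0.605 ± 0.0412 in the controls, 0.919 ± 0.0824 with construct 5 and 0.514 ± 0.0371 with construct 7 (SD, n = 3), and the 3 groups did not overlap. A ratio shows unequal change of its genes, not which of them changed. With construct 5, Sspn already lay wholly above and Sgca wholly below the controls, so separation of their ratio was fixed by these levels. Sgca was also below the controls in all 6 siRNA libraries, which enters the ratio of Sgcb to Sgca. The ratios are therefore a description and no further support, and the share of other gene pairs that separate was not computed.

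**Figure D3:**
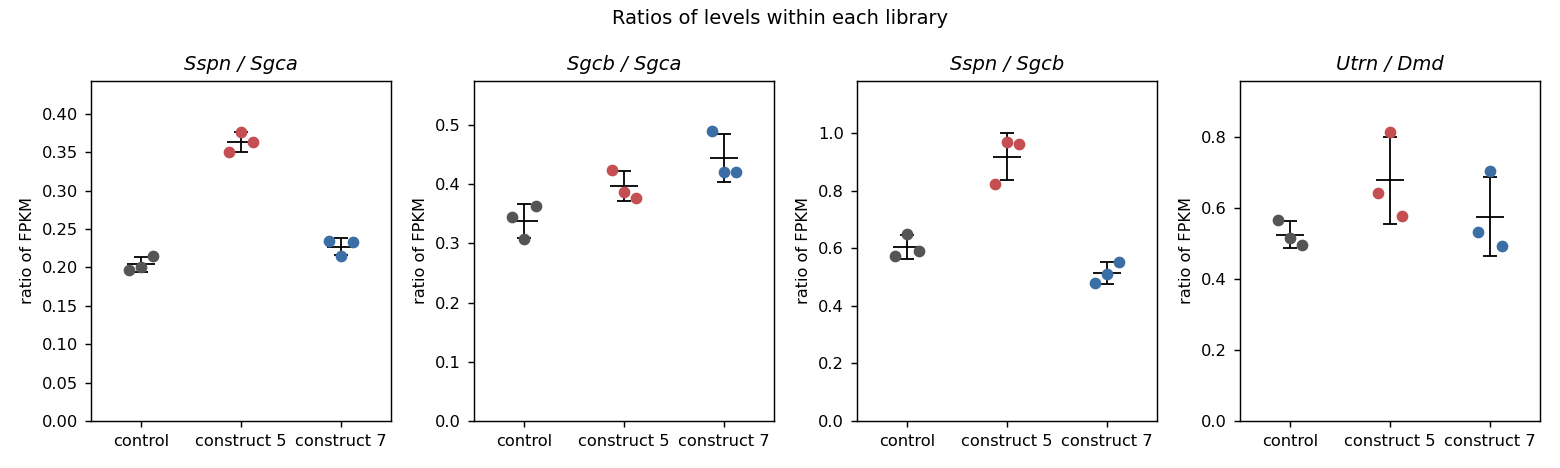
Ratio of FPKM between pairs of genes in each library (points) with mean and SD of each group (bars, n = 3). Sspn to Sgca is 0.35 to 0.376 with construct 5 and 0.197 to 0.235 in the other 6 libraries, while Utrn to Dmd overlaps between the groups.

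Control replicate 1 was the lowest control for Dmd, Utrn, Dag1, Sgcd and Dtna, and narrowly for Sspn (19.79 FPKM against 19.81 in replicate 2). In the same library the 960 tested genes with models over 8000 bases had a median of -0.07 relative to the control mean on the log2 scale, and the 2908 under 2000 bases had 0.02; control replicate 3 had 0.07 and -0.02. The models of Dmd, Utrn, Sgcd and Dtna are 8261 to 23808 bases long, that of Dag1 is 4563 and that of Sspn 4996. The part of gene length in these levels was not tested. After the group means were removed, Pearson's r over the 9 libraries was 0.92 for Dmd with Sgcd, 0.83 for Sgcd with Dtna and 0.83 for Utrn with Dag1. Sspn and Sgca had r = -0.84 over the 9 libraries and 0.27 with the group means removed. These libraries share their depth and RNA quality across genes, so the values are a description.

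Among named genes the patterns most like Sspn over the 9 libraries were Rnf130 (r = 0.97), Spon2 (0.96) and Ubtd2 (0.95). For Sgca they were Popdc2 (0.95), Stt3b (0.94) and Ubl7 (0.93), and for Sgcb Casd1 (0.95), Tmed4 (0.93) and Rnf6 (0.92). Dmd was most like Fbxl17 (0.92), Dyrk1a (0.88) and Urod (0.87), and Utrn most like Dscr3 (0.95), Rac2 (0.94) and Ppp2r1a (0.94). Sgcd came nearest to Herc2 (0.96), Ppp1r12b (0.95) and Arid2 (0.95), Dtna to Synrg (0.93), Ube4a (0.93) and Eif2c2 (0.93), and Dag1 to D18Ertd653e (0.95), Fam92a (0.93) and Sel1l (0.93). No other member of the complex or of its partner lists was among these 24 genes.

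Among partners on the inner side of the membrane, caveolin 3 (Cav3), the muscle caveolin that binds dystroglycan, fell with construct 5. Its mean was 46.0 ± 2.57 in the controls and 36.1 ± 2.12 with that siRNA (SD in FPKM, n = 3). The log2 change was -0.34 (SE 0.0743, limma adjusted p = 0.0471), and all 3 libraries were below the controls. With construct 7 it was 39.2 ± 2.05 FPKM (-0.23, limma adjusted p = 0.385), again below the controls in 3 of 3 libraries. Median-ratio scaling kept the call with construct 5 (-0.48, adjusted p = 0.0448). It ended with quantile normalization (adjusted p = 0.0535), no filter on low values (0.0837), only the libraries of the contrast (0.0564) and the replicate block (0.0632). It also ended without control replicate 1, 2 or 3 (0.12, 0.101 and 0.106), construct 5 replicate 1 or 2 (0.154 and 0.0849) or construct 7 replicate 1 or 3 (0.0515 and 0.0666). Cav3 was the only called gene of 10 tested from a list of 13 other subunits and partners, whose median was 0.05 with construct 5 and 0.01 with construct 7. Syncoilin (Sync), which links dystrobrevin to intermediate filaments, had 0.50 with construct 5 (limma adjusted p = 0.0598), and beta1-syntrophin (Sntb1) had 0.35 (limma adjusted p = 0.126). With construct 7 limma and voom called 0 of the 10, and 1 had an unadjusted p under 0.05, beside 9.47% of all genes. With construct 5 the count at an unadjusted p under 0.05 was 5, beside 31.9%. Lying wholly below the controls, as Cav3 did, held for 5.19% of all genes with construct 5 and 6.26% with construct 7.

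The enzymes that build the laminin-binding sugar of dystroglycan had a median of 0.07 with construct 5 and -0.07 with construct 7. Of 18 listed, 13 were tested, and limma and voom called 0 in either comparison. At an unadjusted p under 0.05 there were 2 in each, beside 31.9% of all genes with construct 5 and 9.47% with construct 7. Pomgnt1, which extends O-mannose sugars, had 11.4 ± 0.189 FPKM in the controls and 9.5 ± 0.26 with construct 7 (SD, n = 3; -0.24, limma adjusted p = 0.278). It lay below every control in 3 of 3 construct 7 libraries, as 6.26% of all tested genes did. Dpm3 (0.26) and Gmppb (0.20) had adjusted p-values of 0.143 and 0.152 with construct 5.

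The 16 basement membrane and matrix genes, among them the laminin, agrin and perlecan genes that dystroglycan ligands come from, had a median of 0.19 with construct 5. Of them 14 were above 0 and 10 above the median of all genes. With construct 7 the median was -0.11 and 14 were below 0. Limma and voom called 0 in both, with 5 and 0 at an unadjusted p under 0.05, beside 31.9% and 9.47% of all genes. With construct 5 the collagens Col6a1 (0.42, limma adjusted p = 0.113) and Col6a3 (0.38, 0.124), agrin (Agrn, 0.19, 0.143) and the laminin alpha2 chain (Lama2, 0.29, 0.147) had the smallest p. Lama2 had 4.33, 6.04 and 5.09 FPKM in the controls and 6.16, 6.76 and 6.53 with construct 5. With median-ratio scaling the list median with construct 5 was 0.07. Fibroblast markers moved the same way in each comparison, and their part in it was not tested.

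The alpha7 beta1 integrin is the other laminin receptor of the fibre. Of 12 integrin and costamere genes, 11 were above 0 with construct 5 and also above the median of all genes. The list median was 0.29 as deposited and 0.15 with median-ratio scaling. Limma and voom called 0 (4 at an unadjusted p under 0.05, beside 31.9% of all tested genes). In 33% of all tested genes every construct 5 library was above every control. Itga7 averaged 25.3 ± 2.32 in the controls and 35.0 ± 4.35 FPKM with construct 5 (SD, n = 3; 0.45, limma adjusted p = 0.0824) and Itgb1 from 51.8 ± 4.83 to 67.7 ± 6.14 FPKM (0.38, limma adjusted p = 0.0985), each above the controls in 3 of 3 libraries. Paxillin (Pxn) had 0.31 with construct 5 (limma adjusted p = 0.0884), and the adaptor Lims1 had 0.33 for the mean of both constructs (limma adjusted p = 0.123). With construct 7 the list median was 0.06 and limma and voom called 0 (1 at an unadjusted p under 0.05, beside 9.47% of all genes).

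Of 13 membrane repair genes, 12 were above 0 and 8 above the median of all genes with construct 5 (median 0.20, or 0.06 with median-ratio scaling). At an unadjusted p under 0.05 there were 8 of the 13, beside 31.9% of all tested genes. Ahnak, a giant protein found with dysferlin, rose from 11.3 ± 1.57 to 17.0 ± 2.04 FPKM (SD, n = 3). The log2 change was 0.55 (limma adjusted p = 0.0471). Median-ratio scaling ended the call (0.41, adjusted p = 0.0872), as did voom under that scaling (0.0909). Voom without that scaling kept the call (0.0437). Quantile normalization (0.0945), no filter (0.091), only the libraries of the contrast (0.0556) and the replicate block (0.0632) ended it as well. It also ended without control replicate 1, 2 or 3 (adjusted p = 0.129, 0.101 and 0.0972), construct 5 replicate 1 or 2 (0.154 and 0.0856) or construct 7 replicate 3 (0.0707). Annexin A1 (Anxa1) had 0.65 (limma adjusted p = 0.0591), S100a10 0.46 (0.104) and the membrane patching protein Trim72 0.20 (0.115). Anxa1 was lower with construct 7 than with construct 5 (-0.93, limma adjusted p = 0.0471). Median-ratio scaling ended this call (adjusted p = 0.0697), as did voom under that scaling (0.0555), while voom without that scaling kept it (0.0369). Quantile normalization (0.0739), no filter (0.102), the filter at 5 FPKM (0.0523) and only the libraries of the contrast (0.115) ended it. That call ended too without control replicate 1, 2 or 3 (0.0813, 0.0653 and 0.0665), construct 5 replicate 1 or 2 (0.129 and 0.0786) or construct 7 replicate 1 or 3 (0.148 and 0.133). With construct 7 the list median was -0.09, and limma and voom called 0 (0 at an unadjusted p under 0.05). Ahnak and Anxa1 are also made by fibroblasts and macrophages, whose markers were higher with construct 5, and the part of those cells was not tested.

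Genes of the neuromuscular junction, where utrophin is concentrated, had medians of 0.11 with construct 5 and 0.12 with construct 7. Limma and voom called 0 of 11 in either (4 and 1 at an unadjusted p under 0.05, beside 31.9% and 9.47% of all genes). The acetylcholine receptor subunits Chrna1 (0.77 and 0.57) and Chrnd (0.57 and 0.49) had values above 0 with constructs 5 and 7, and acetylcholinesterase (Ache) had -0.38 and -0.26. The fetal subunit Chrng had 0.95 with construct 5 (limma adjusted p = 0.0974). Of 6 genes of regenerating fibres, all were above 0 with both constructs, with medians of 0.90 and 0.27, and in all 6 every construct 5 library exceeded every control, beside 33% of all genes. Limma and voom called 0 of them (5 at an unadjusted p under 0.05 with construct 5, beside 31.9% of all genes, and 0 with construct 7). The 6 satellite cell markers summed to 30.6 to 35.9 FPKM in the controls, 39.3 to 50.9 with construct 5 and 29.4 to 41.6 with construct 7, and macrophage markers were higher with construct 5 too. Most of the satellite cell sum was Itga7, which fibres also make and which is in the integrin list. The part of these cells was not tested. Embryonic myosin (Myh3) stood at 0.766, 3.15 and 2.59 FPKM in the controls, 8.61, 7.14 and 8.12 with construct 5 and 0.684, 7.19 and 2.23 with construct 7 (1.59 with construct 5, limma adjusted p = 0.0813). Myogenin (Myog) had 1.02 (limma adjusted p = 0.0589), perinatal myosin (Myh8) 0.71 (0.0639) and Ncam1 0.83 (0.0791). Construct 7 replicate 2 was the highest library of its group for Myh3, as it was for Utrn, Dag1 and Sgca and not for the other members.

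**Figure D4:**
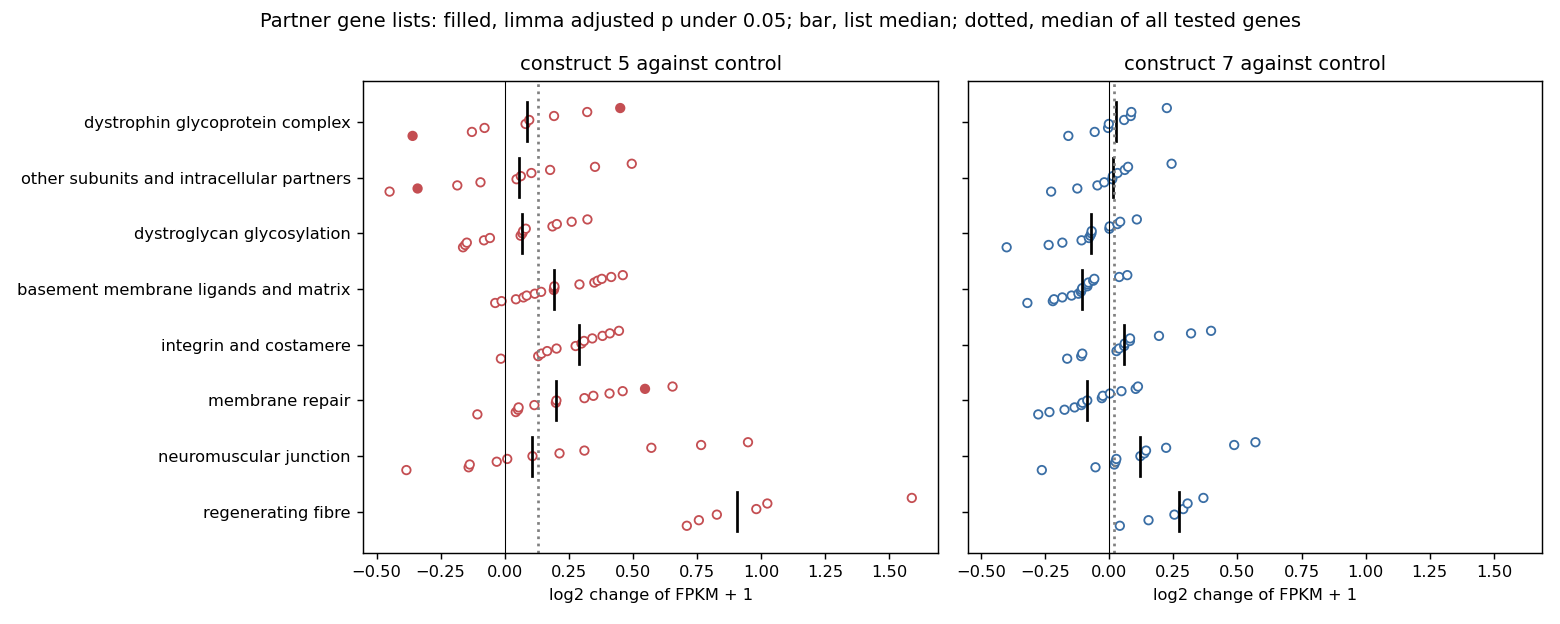
Log2 change of each tested gene of the 8 members and of the 7 partner lists with construct 5 (left) and construct 7 (right). Filled points are called by limma at an adjusted p under 0.05, bars are list medians and the dotted line is the median of all tested genes. Called genes are Sgca, Sspn, Cav3 and Ahnak with construct 5 and none with construct 7.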

How the data were processed

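Total RNA of 9 tibialis anterior samples in 3 groups had been sequenced. The deposited table holds FPKM values made by the authors, with BWA, STAR and HTSeq and the genome mm9 named per the submitters' processing notes; versions and the role of each tool are not given in the sources used here. The 8 genes and the 15 lists (7 partner, 8 marker) were chosen with earlier results of these data known. The test was limma 3.58.1 in R 4.3.3 (eBayes with trend), fitted to log2(FPKM + 1) of the 10794 genes with a mean of at least 1 FPKM in the 9 libraries jointly, and Benjamini-Hochberg adjusted p-values under 0.05 were called. Described were the 8 genes, up to 4 genes of each list by smallest p (some are not reported here), called genes, and the 3 genes most correlated with each member. Depth was found from steps in low values with GENCODE M21 lengths, and a gene length was then sought that made all 9 values whole reads within 0.05 reads. It was found for 10773 tested genes (99.8%), which gave reads for voom. Alternatives were 9 settings, each of 9 libraries left out, and 2 voom fits added after the data were seen. The fit was tested on simulated data. Correlations of libraries within groups were 0.985 to 0.993. Promoters and their overlaps were read on GRCm38. Figures used Python 3.11.15 and matplotlib 3.10.9.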

Additional observations from a re-analysis of the deposited data

Results flagged for a closer look

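The difference in Sspn between the constructs was singled out because the effects of the 2 siRNAs, measured against the same controls, differed by a test of the difference itself. Sspn was lower with construct 7 than with construct 5 by -0.45 on the log2 scale (limma adjusted p = 0.0224), in 3 of 3 libraries. Over 20 alternatives the adjusted p was 0.0208 to 0.0969.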

How the results depend on the processing

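With construct 5, 2 of the 8 genes were called. The count was 1 (Sgca) with median-ratio scaling, with quantile normalization and with voom under median-ratio scaling, and 0 with no filter on low values and with the replicate block; leaving out a library gave 0 to 2. Between the constructs 1 gene (Sspn) was called, and 0 with quantile normalization, with no filter and with only the libraries of the contrast; leaving out a library gave 0 to 1. With median-ratio scaling the 1 gene called was Sgcb. For construct 7 and for the mean of both constructs 0 were called in all alternatives run. The deviations of samples with the same replicate number from their group means had r of -0.364 to 0.313. With so few libraries these values cannot settle whether the numbers pair the samples. With the replicate block the limma adjusted p with construct 5 was 0.0518 for Sspn and 0.054 for Sgca. Among all genes, 569 calls with construct 5 (504 higher and 65 lower) became 78 with median-ratio scaling (14 higher and 64 lower), 86 with quantile normalization (13 and 73), 316 with a pseudocount of 0.1, 204 with a filter at 5 FPKM, 246 with only the libraries of the contrast, 11 with the block, 5 with no filter and 1 to 581 without single libraries. The 6 calls with construct 7 became 0 to 7. The 132 between constructs became 3 to 387, and 79 with median-ratio scaling, of which 38 were higher and 41 lower, beside 16 and 116 as deposited. The causes were not tested. For 3 libraries against 3, a two-sided exact permutation test cannot go below p = 0.1. For 6 against 3 the smallest p is 0.0119, and Sgca had an exact permutation p of 0.0238 there, not adjusted over genes.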
